A study of Acidomyces sp. 'richmondensis' with 12 samples.

Results

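A set of 41 genes in the acid-loving fungus Acidomyces richmondensis MEY-1 had higher transcript levels with copper in a strain lacking ArAceA, with a smaller or no rise in the wild type. They were chosen by group means of FPKM, the number of fragments per kilobase of a transcript relative to the size of its library, from the 10043 genes of the series. Each response is a difference of log2(mean FPKM + 1). The rule asked for a copper response of at least 1 in ∆ArAceA, one below 0.5 in WT, and a level in ∆ArAceA without copper more than -1 relative to WT. It also asked for at least 5 FPKM in the highest group mean and a mean below 1000 FPKM over the 12 libraries. Among the 7122 genes within the limits on level, 141 had a response of at least 1 in ∆ArAceA. Of these, 86 also had a response of 0.5 or more in WT and were left aside, 14 were dropped for a low level in ∆ArAceA without copper, and 41 were kept.

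The libraries came from 4 groups of 3 separate cultures each. WT was the unmodified MEY-1 strain and ∆ArAceA the same strain with ArAceA deleted, in a study whose title names CRISPR/Cas9 as its editing system. All cultures were grown as mycelium from arthroconidia for 4 days in liquid MMC medium, washed and moved to fresh MMC for 6 h, with 15 mM CuCl2 (WT with copper, ∆ArAceA with copper) or without it (WT, ∆ArAceA). How many independent deletion clones were used was not given in the sources used here. RNA came from whole mycelium, so a change in the number of hyphae that express a gene cannot be told apart from a change per cell. The files pair no locus identifier with a gene name or a position, so no member is given a role, and the level of ArAceA was not analysed here.

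Copper is a cofactor of respiratory and antioxidant enzymes, and in excess it promotes oxidative damage and displaces other metals from proteins. Fungi are known to meet an excess by pumping copper out through P-type ATPases, by binding it in metallothioneins and by reducing its uptake. In Aspergillus fumigatus the transcription factor AceA senses excess copper and switches on the copper exporter CrpA. In baker's yeast the related factor Ace1 activates metallothionein genes. The names of the 41 genes are not known here, so which of these routes they belong to, if any, was not analysed.

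The label under which the genes were grouped, raised by copper in the deletion strain alone, holds only in part. In WT the copper response of the 41 genes had a median of 0.25 and ran from -0.95 to 0.49 on the log2(mean FPKM + 1) scale. It was above 0 in 32 members and below 0 in 9, and 21 members lay between 0.25 and the limit of 0.5. In the test fitted over all genes (limma on log2(FPKM + 1), adjusted p under 0.05), 12 of the 41 were called higher with copper in WT too, against 10.6% of the 8741 genes tested. By limma 0 were called lower in WT, against 10.7% of the genes tested, with 1 lower at an unadjusted p under 0.05, and 29 were not called. The rule itself set the range of these values, so the counts describe the members and support nothing.

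FPKM sums per library lay between 884111 and 926713, and no read counts were used. The absolute depth is unknown. The spacing of the lowest values, over 44 genes and 114 values, put the relative depths between 0.988 and 1.04. Only genes whose values above 0 lay within 10% of each other were used for this. That choice itself limits the range, so these figures cannot show that the depths were equal. Replicate libraries of a group were from separate cultures, and the tests measure only the spread between these cultures.

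Summed over the 41 genes, the level was highest in ∆ArAceA with copper, at 2137, 2017 and 2176 FPKM in the 3 libraries. WT gave 897, 815 and 870.1 FPKM without copper and 1065, 1072 and 1029 with it, and ∆ArAceA without copper gave 825, 828 and 782 FPKM. Those of ∆ArAceA with copper therefore lay apart from the other 9 libraries, and those of WT with copper lay above those of WT. The rule chose genes for high means in ∆ArAceA with copper, so nothing is read from the separation of that group. As a share of the library, the members held 0.238 ± 0.00924% of all FPKM in ∆ArAceA with copper (mean ± SD over 3 cultures, as for every group value below). The share was 0.0947 ± 0.00545% in WT, 0.116 ± 0.00164% in WT with copper and 0.0913 ± 0.00305% in ∆ArAceA. A single gene, M433DRAFT_153701, contributed the most of any member to the sums. Without it they were 698 ± 10.6 FPKM in WT, 832 ± 31.4 in WT with copper, 691 ± 13.6 in ∆ArAceA and 1652 ± 41.1 FPKM in ∆ArAceA with copper.

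**Figure D1:**
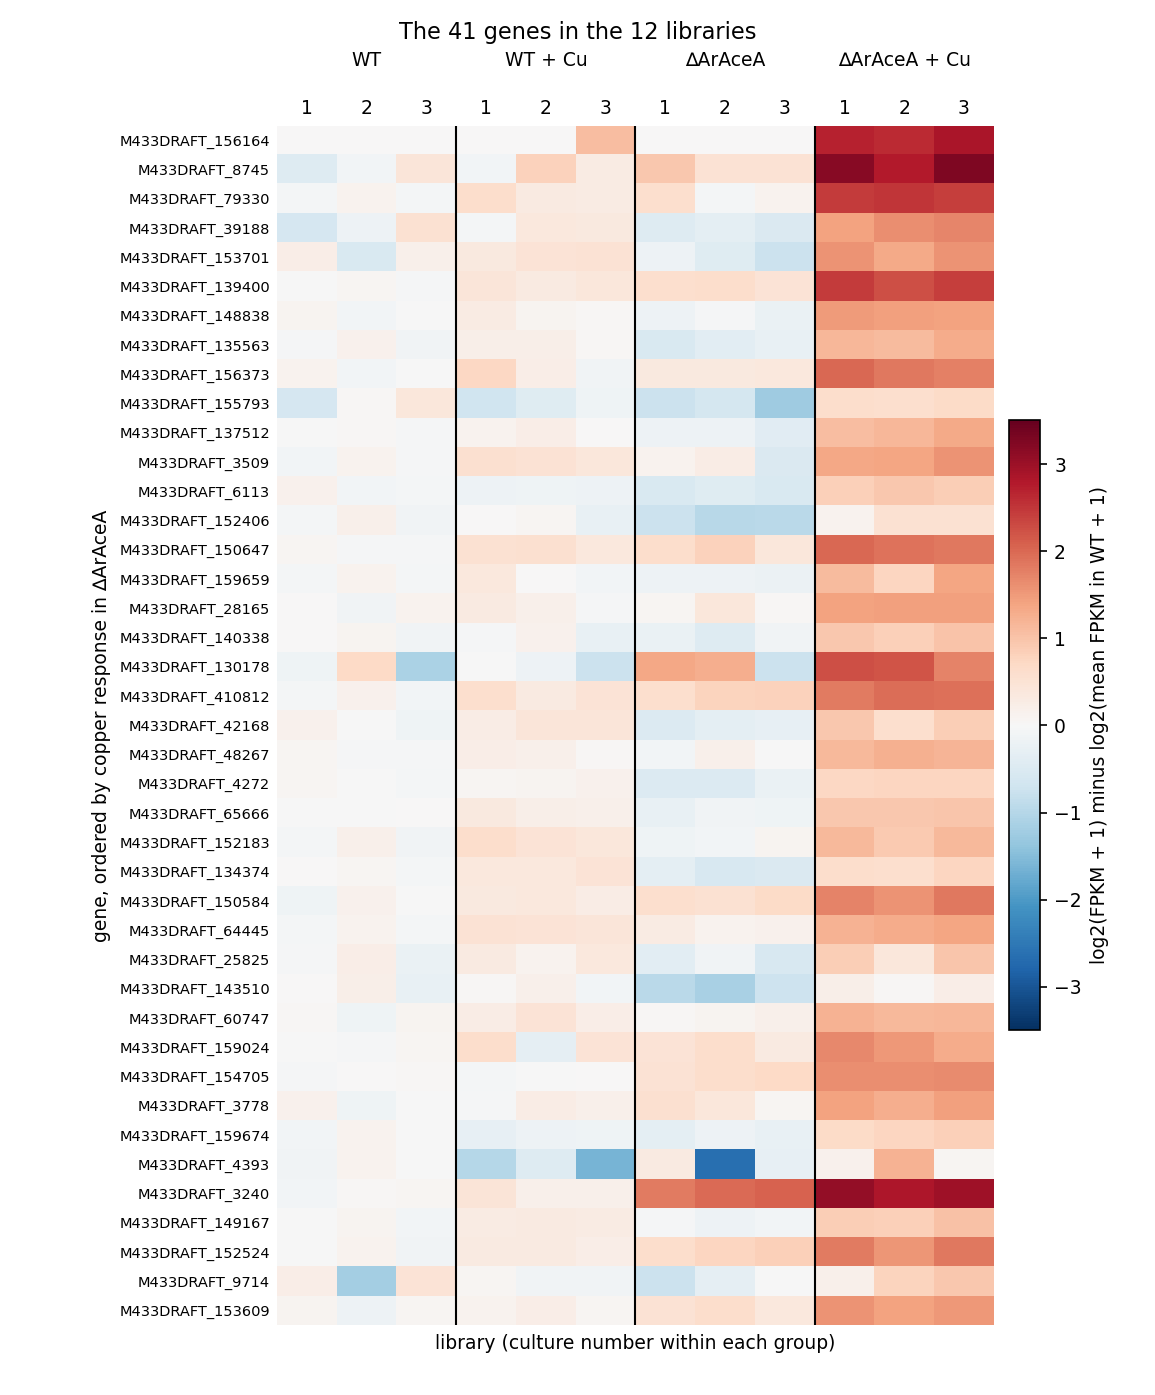
Heat map of log2(FPKM + 1) minus log2(mean FPKM in WT + 1) for the 41 genes (one line each, ordered by copper response in ∆ArAceA) in the 12 libraries (columns, 3 cultures per group). Red marks levels above the WT mean and blue levels below it, and the 3 columns of ∆ArAceA with copper are the reddest for most genes, as the 37 genes whose values there all exceed the other 9 show.

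Levels spanned a wide range. Group means in ∆ArAceA with copper ran from 5.49 to 458 FPKM with a median of 21.8 FPKM over the 41 genes, and 12 genes were below 10 FPKM there while 7 were at 100 FPKM or more. Median levels were 8.93 FPKM in WT, 7.82 in WT with copper and 9.17 FPKM in ∆ArAceA. For comparison, the medians over the 8741 tested genes were 19.2, 19.0, 21.8 and 21.3 FPKM in WT, WT with copper, ∆ArAceA and ∆ArAceA with copper. All 41 members passed the filter of the test, a level of 1 FPKM or more in 3 or more libraries. M433DRAFT_156164 and M433DRAFT_79330 passed it only through ∆ArAceA with copper.

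The copper response in ∆ArAceA had a median of 1.16 and ran from 1.001 to 2.72 on the log2(mean FPKM + 1) scale, which for the ratio of means was 2.06-fold to 9.4-fold among the 40 genes not listed at 0 without copper. Most members lay close to the lower limit, with 32 below 1.5, 9 at 1.5 or more and 4 at 2 or more. In 40 of the 41 genes all 3 libraries of ∆ArAceA with copper exceeded all 3 of ∆ArAceA, as held in 28.9% of the genes tested. In 37 they exceeded all 9 other libraries, against 14.2% of the genes tested, and in 40 they exceeded all 3 of WT with copper, against 43.1%. By limma 38 of the 41 were called higher with copper in ∆ArAceA, against 24.7% of the genes tested. The difference of the copper responses between genotypes was called more positive in ∆ArAceA for 38, against 20.2%. Copper cultures of ∆ArAceA were called higher than those of WT for 38, against 35.4%. The 3 comparisons share the libraries of ∆ArAceA with copper, and the rule used the means behind each of them, so nothing is read from these counts.

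**Figure D2:**
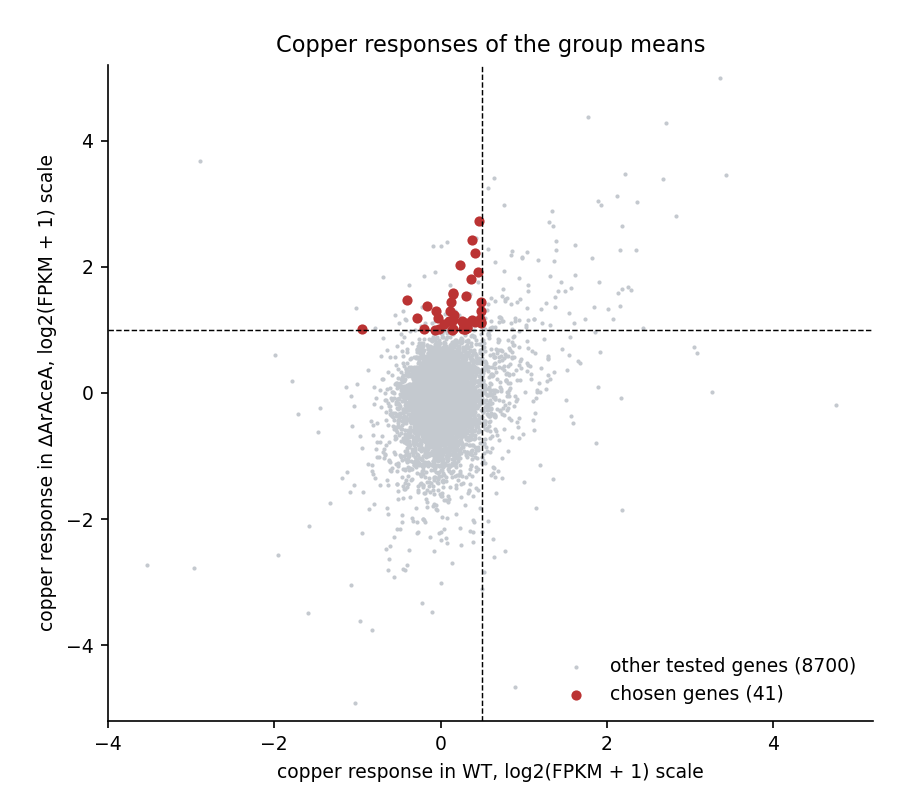
Copper response in WT (horizontal) against that in ∆ArAceA (vertical), both as differences of log2(mean FPKM + 1), for the 41 chosen genes (red) and the other tested genes (grey). Dashed lines mark 0.5 and 1. The chosen genes run from 1.001 to 2.72 in ∆ArAceA and from -0.95 to 0.49 in WT, and most sit just above the line at 1.

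The 4 strongest responses on this scale belonged to genes that stayed below 5 FPKM in the means of every other group. This held for 13 members in all, and their median went from 2.51 FPKM in ∆ArAceA to 6.68 FPKM with copper. M433DRAFT_156164 had FPKM values of 0, 0 and 0 in WT and 0, 0 and 1.12 in copper-treated WT, and of 0, 0 and 0 in ∆ArAceA and 5.46, 5.10 and 6.22 in copper-treated ∆ArAceA. It was thus detected in every culture of ∆ArAceA with copper and in 1 of the other 9 libraries. Its mean with copper was 14.98-fold that of WT with copper, a ratio that rests on the 1 library of that group not listed at 0, and no fold is given against WT or ∆ArAceA without copper. The authors' deposited table gave a log2 ratio of only 0.48 for this comparison, with a Q of 0.338. In WT, M433DRAFT_8745 was measured at 0.65, 1.14 and 2.02 FPKM without copper and 1.13, 2.94 and 1.79 with it, while the ∆ArAceA cultures gave 3.36, 2.25 and 2.24 FPKM without copper and 19.7, 14.4 and 20.8 with it. All 9 other libraries stayed at or below 3.36 FPKM, and the copper means differed 6.99-fold in ∆ArAceA and 1.54-fold in WT. M433DRAFT_79330 had FPKM values of 0.41, 0.63 and 0.42 in WT and 1.26, 0.84 and 0.83 in copper-treated WT, and of 1.25, 0.42 and 0.63 in ∆ArAceA and 7.15, 7.50 and 6.97 in copper-treated ∆ArAceA. The values with copper in ∆ArAceA were tight and 9.4-fold higher by the means, whereas WT libraries with copper, though all above those without, stayed at or below 1.26 FPKM.

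In another pair of low genes ∆ArAceA with copper was again highest, while the other 3 groups stood in a different order in each. In WT, M433DRAFT_39188 was measured at 1.30, 2.06 and 4.01 FPKM without copper and 2.31, 3.46 and 3.40 with it, while the ∆ArAceA cultures gave 1.51, 1.73 and 1.44 FPKM without copper and 8.25, 9.61 and 10.3 with it. The lowest value of ∆ArAceA with copper was more than 2 times the highest of the other 9 libraries, and the ratio of means was 6.01 in ∆ArAceA against 1.24 in WT. M433DRAFT_139400 had FPKM values of 1.35, 1.48 and 1.30 in WT and 2.17, 1.94 and 2.11 in copper-treated WT, and of 2.57, 2.64 and 2.33 in ∆ArAceA and 11.9, 10.3 and 11.7 in copper-treated ∆ArAceA. This gene was stepped, with WT lowest, WT with copper and ∆ArAceA next to each other and ∆ArAceA with copper highest. Its copper fold was 4.49 in ∆ArAceA and 1.51 in WT, and it was 1 of the 12 called higher in both genotypes.

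Among members of middling level, M433DRAFT_135563 and M433DRAFT_156373 came next by size of response. In WT, M433DRAFT_135563 was measured at 5.14, 6.06 and 4.85 FPKM without copper and 6.31, 6.26 and 5.58 with it, while the ∆ArAceA cultures gave 3.38, 3.96 and 4.34 FPKM without copper and 13.1, 12.6 and 14.7 with it. The ∆ArAceA libraries lay below all 3 of WT, and the level went from the lowest of the 4 group means to the highest with copper, a 3.45-fold difference. M433DRAFT_156373 had FPKM values of 11.1, 9.47 and 10.1 in WT and 17.4, 12.1 and 9.24 in copper-treated WT, and of 13.2, 13.1 and 13.6 in ∆ArAceA and 44.3, 39.5 and 37.2 in copper-treated ∆ArAceA. Its libraries of WT with copper straddled those of WT, while all 3 ∆ArAceA libraries lay above those of WT. With copper ∆ArAceA stood 3.03-fold higher still.

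The 5 most abundant members had copper folds of 2.18 to 3.81 in ∆ArAceA. In WT, M433DRAFT_153701 was measured at 192, 112 and 184 FPKM without copper and 208, 229 and 233 with it, while the ∆ArAceA cultures gave 143, 122 and 95.8 FPKM without copper and 483, 407 and 484 with it. It was the most abundant member in every group, at 163 ± 44.02, 223 ± 13.1, 120.3 ± 23.8 and 458 ± 44.0 FPKM in WT, WT with copper, ∆ArAceA and ∆ArAceA with copper. The mean with copper was 3.81-fold that without in ∆ArAceA and 1.37-fold in WT, where the gene was not called, and its WT replicate 2, at 112 FPKM, was the low library of its group. M433DRAFT_148838 had FPKM values of 49.6, 43.8 and 45.9 in WT and 57.03, 50.2 and 48.04 in copper-treated WT, and of 40.9, 45.5 and 39.5 in ∆ArAceA and 131, 127 and 125 in copper-treated ∆ArAceA. WT with and without copper overlapped in this gene, while ∆ArAceA with copper was 3.04-fold above ∆ArAceA with a spread of only 2.53% of the mean.

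The other three of the 5 most abundant members had ratios just above 2. M433DRAFT_65666 stood at 82.6 ± 0.563 FPKM in WT, 98.7 ± 6.24 in WT with copper, 72.8 ± 3.10 in ∆ArAceA and 161 ± 2.90 FPKM in ∆ArAceA with copper. It was called higher with copper in WT as well, by 1.19-fold against 2.21-fold in ∆ArAceA, and the groups did not overlap. M433DRAFT_64445 was at 58.1 ± 4.16, 81.5 ± 2.25, 66.5 ± 4.33 and 145 ± 8.20 FPKM in the same order of groups. Its folds were 1.40 in WT and 2.18 in ∆ArAceA, and its WT response of 0.48 lay close to the limit. M433DRAFT_48267 was at 63.7 ± 3.18, 71.04 ± 5.30, 65.3 ± 6.40 and 146 ± 6.51 FPKM, with folds of 1.11 and 2.24, and was not called in WT.

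**Figure D3:**
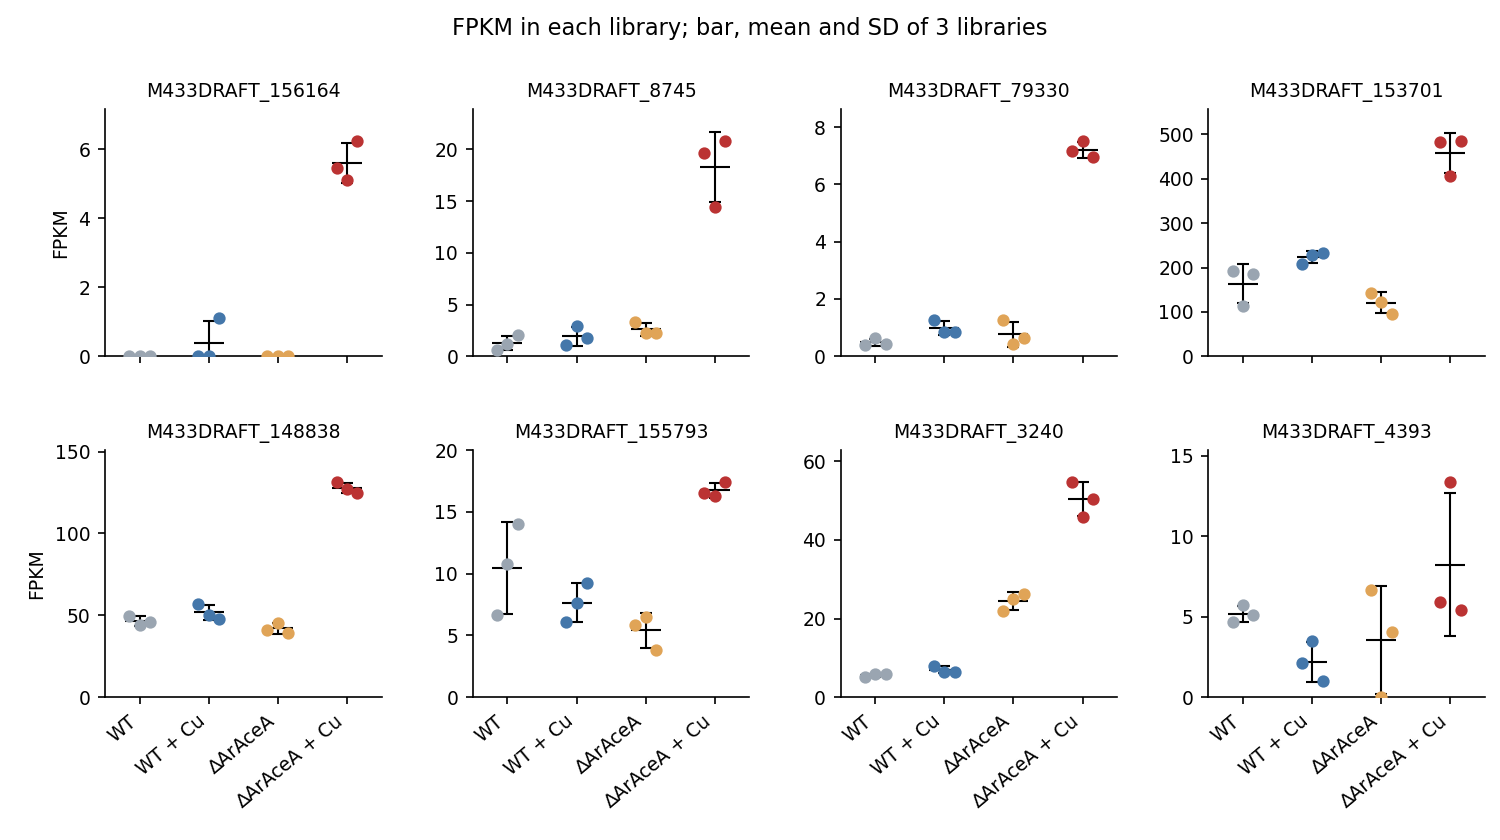
FPKM in each library for 8 of the 41 genes (points, 3 cultures per group; bar and whiskers, mean and SD), each panel on its own linear axis from 0. In the first 7 panels the 3 points of ∆ArAceA with copper, such as 16.3 to 17.4 FPKM for M433DRAFT_155793, lie above all 9 others, and in M433DRAFT_4393 they overlap with ∆ArAceA.

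The 12 members called higher in WT too had higher median levels than the other 29, with ranges that overlapped widely. Their median level was 28.0 FPKM in WT, 37.7 in WT with copper, 27.7 in ∆ArAceA and 61.1 FPKM in ∆ArAceA with copper. For the 29 others the medians, in the same order, were 5.57, 6.05, 4.56 and 13.5 FPKM. In the 12 genes the copper fold was 1.19 to 1.65 in WT, with a median of 1.32, and 2.06 to 4.49 in ∆ArAceA, with a median of 2.21. In 17 of the 41 genes all WT libraries with copper exceeded all those without, against 16.4% of the genes tested. In ∆ArAceA with copper the 12 ran from 8.01 FPKM for M433DRAFT_410812 to 161 FPKM for M433DRAFT_65666, and M433DRAFT_153701, the most abundant member, was not among them. Whether level and call were related was not tested.

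In 9 members the level was lower with copper in WT while it was higher in ∆ArAceA, by their means. The response in WT was lowest in M433DRAFT_4393, M433DRAFT_155793 and M433DRAFT_130178, at -0.95, -0.41 and -0.28 on the log2(mean FPKM + 1) scale. None of these was called in WT by limma. The authors' deposited table listed M433DRAFT_4393 as lower with copper in WT, at a log2 ratio of -0.92 and a Q under 0.05. In WT, M433DRAFT_155793 was measured at 6.62, 10.8 and 14.1 FPKM without copper and 6.11, 7.60 and 9.26 with it, while the ∆ArAceA cultures gave 5.88, 6.52 and 3.85 FPKM without copper and 16.6, 16.3 and 17.4 with it. WT replicates varied, from 6.62 to 14.1 FPKM, and overlapped with WT with copper, whereas ∆ArAceA with copper was 3.09-fold above ∆ArAceA without overlap. In 3 members all WT libraries with copper lay below all those without, against 18.0% of the genes tested. These were M433DRAFT_4393, M433DRAFT_6113 and M433DRAFT_159674, of which M433DRAFT_6113 is named here after its values were seen. M433DRAFT_6113 had FPKM values of 28.3, 23.9 and 24.4 in WT and 22.3, 22.9 and 22.5 in copper-treated WT, and of 17.3, 18.6 and 17.3 in ∆ArAceA and 46.2, 49.6 and 47.2 in copper-treated ∆ArAceA. The WT means were 25.5 ± 2.41 FPKM without and 22.6 ± 0.308 with copper, and the ∆ArAceA means 17.8 ± 0.756 and 47.7 ± 1.71 FPKM. In WT, M433DRAFT_159674 was measured at 2.59, 3.18 and 2.80 FPKM without copper and 2.17, 2.41 and 2.46 with it, while the ∆ArAceA cultures gave 2.02, 2.38 and 2.22 FPKM without copper and 5.11, 5.51 and 5.86 with it. Its values were low throughout, and the 3 highest were those of ∆ArAceA with copper.

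Without copper the members lay on both sides of WT. The difference of ∆ArAceA from WT had a median of -0.04 on the log2(mean FPKM + 1) scale, beside 0.12 over all tested genes, and ran from -0.92 to 1.95. By limma 11 members were called higher in ∆ArAceA, against 40.8% of the genes tested, and 11 lower, against 17.9%. Both scalings of the libraries lowered the median difference of all tested genes by 0.13, and with them 8 members were called higher and 16 lower. The shares of all tested genes called under the scalings are not given here. The shift in these counts is therefore not read as a trait of the members. All 3 libraries of ∆ArAceA lay above those of WT in 12 members, against 42.8% of the genes tested, and below them in 13, against 19.3%. The lower limit of the rule on this difference bounds these values from below.

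The members fell into 3 classes by that difference, cut at -0.5 and 0.5 after the values were seen. The 3 genes below -0.5 were M433DRAFT_143510, M433DRAFT_152406 and M433DRAFT_155793. M433DRAFT_152406 stood at 18.8, 22.7 and 17.96 FPKM in WT and 19.9, 20.6 and 16.4 in WT with copper, but at 11.3, 9.66 and 9.79 in ∆ArAceA and 21.5, 29.3 and 29.1 FPKM in ∆ArAceA with copper. Its level in ∆ArAceA was 1.94-fold below WT, and with copper it reached 1.40-fold above WT with copper, while 1 library of ∆ArAceA with copper, at 21.5 FPKM, fell below the highest of WT. M433DRAFT_143510 had FPKM values of 9.11, 10.3 and 7.34 in WT and 9.27, 10.2 and 8.34 in copper-treated WT, and of 4.21, 3.51 and 4.99 in ∆ArAceA and 10.5, 9.18 and 10.6 in copper-treated ∆ArAceA. It was 2.11-fold below WT without copper and 1.09-fold that of WT with copper, with the ranges of the copper groups overlapping. For this gene the copper difference of 0.11 between genotypes dropped to -0.0028 after median-of-ratios scaling and was 0.0064 after upper-quartile scaling.

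At the other end, 10 members stood more than 0.5 above WT in ∆ArAceA without copper. With copper the difference from WT was larger, at least 2-fold in all 10, as the rule and this cut together require. Their median level was 3.55 FPKM in WT, 4.64 in WT with copper, 6.70 in ∆ArAceA and 20.04 FPKM in ∆ArAceA with copper. In WT, M433DRAFT_3240 was measured at 5.11, 5.78 and 5.83 FPKM without copper and 8.0, 6.43 and 6.41 with it, while the ∆ArAceA cultures gave 21.97, 24.9 and 26.3 FPKM without copper and 54.6, 45.9 and 50.5 with it. Its groups without overlap formed steps, with ∆ArAceA 4.38-fold above WT and ∆ArAceA with copper 7.25-fold above WT with copper by FPKM. The authors' deposited table gave smaller log2 ratios for this gene, 1.40 without copper and 1.75 with it, where the FPKM differed by 1.95 and 2.69 on the log2(mean FPKM + 1) scale. M433DRAFT_410812 had FPKM values of 1.28, 1.68 and 1.27 in WT and 2.64, 2.0 and 2.36 in copper-treated WT, and of 2.65, 3.17 and 3.23 in ∆ArAceA and 7.49, 8.32 and 8.22 in copper-treated ∆ArAceA. Each step, by 1.65-fold in WT and 2.66-fold in ∆ArAceA for copper, was free of overlap. M433DRAFT_130178 belonged to this class by its means alone. In WT, M433DRAFT_130178 was measured at 1.01, 2.60 and 0.02 FPKM without copper and 1.18, 0.96 and 0.31 with it, while the ∆ArAceA cultures gave 4.61, 4.34 and 0.30 FPKM without copper and 9.47, 9.14 and 6.33 with it. The third ∆ArAceA library, at 0.30 FPKM, lay more than 10-fold below the other two, and without it the copper response in ∆ArAceA was 0.77 in place of 1.19. The middle class of 28 genes had median levels of 10.2 FPKM in WT and 12.02 with copper, and of 11.2 FPKM in ∆ArAceA and 31.0 with copper.

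**Figure D4:**
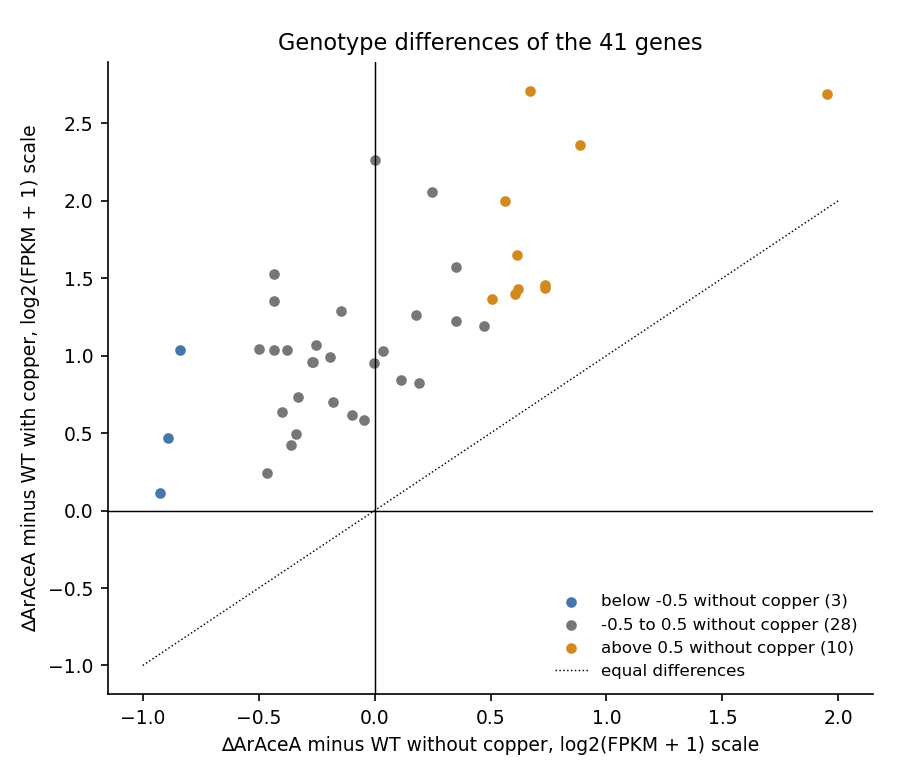
Difference of ∆ArAceA from WT without copper (horizontal) against that with copper (vertical) for the 41 genes, as differences of log2(mean FPKM + 1), coloured by 3 classes of the difference without copper. All points lie above the dotted line of equal differences, as the rule requires, and with copper the differences run from 0.11 to 2.71.

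With copper, ∆ArAceA exceeded WT in the means of all 41 genes, by a median of 1.05 on the log2(mean FPKM + 1) scale, beside 0.12 over all tested genes. After median-of-ratios scaling the median was 0.92 and M433DRAFT_143510 was at -0.0028, while after upper-quartile scaling it stayed above 0. The mean in ∆ArAceA with copper was at least 2 times that in WT with copper in 29 genes. Relative to WT without copper it was at least 2 times as high in 28, counting M433DRAFT_156164, which was listed at 0 in WT. The limits of the rule favour high values in each of these counts, and no share over all tested genes is given for them. The counts describe the members and nothing is read from them.

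The 17 members not named by the rule for single genes all had their highest level in ∆ArAceA with copper. Their means ran from 1.49 to 53.2 FPKM in WT, 2.37 to 69.5 in WT with copper, 1.48 to 50.2 in ∆ArAceA and 5.73 to 114 FPKM in ∆ArAceA with copper. The copper fold ran from 2.06 to 3.86 with a median of 2.27 in ∆ArAceA, and from 0.885 to 1.66 with a median of 1.24 in WT. In all 17 the libraries of ∆ArAceA with copper stood above the other 9, beside 14.2% of the genes tested, and 7 of the 17 were called higher with copper in WT, beside 10.6%. Every member that lacked this separation was among those named, and the rule itself favours it, so nothing is read from these counts.

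In ∆ArAceA with copper, replicates agreed closely in most members, and the other groups were not summarised in this way. The coefficient of variation over the 3 libraries of ∆ArAceA with copper was below 10% in 29 genes and above 20% in 5. It was highest in M433DRAFT_4393 at 53.8%, M433DRAFT_9714 at 30.9% and M433DRAFT_25825 at 23.1%. M433DRAFT_4393 had FPKM values of 4.69, 5.72 and 5.12 in WT and 2.11, 3.48 and 1.01 in copper-treated WT, and of 6.64, 0 and 4.07 in ∆ArAceA and 5.92, 13.3 and 5.44 in copper-treated ∆ArAceA. One ∆ArAceA library was listed at 0, and the range of ∆ArAceA overlapped with that of ∆ArAceA with copper. Its response in ∆ArAceA was 1.01 with all libraries, 0.54 without ∆ArAceA replicate 2, 0.55 without ∆ArAceA with copper replicate 2 and 1.61 without ∆ArAceA replicate 1. In WT, M433DRAFT_9714 was measured at 4.21, 0.96 and 5.25 FPKM without copper and 3.70, 3.08 and 3.07 with it, while the ∆ArAceA cultures gave 1.66, 2.61 and 3.39 FPKM without copper and 4.02, 6.66 and 7.68 with it. The low WT replicate 2, at 0.96 FPKM, widened its WT range, and 1 copper library of ∆ArAceA lay below the highest of WT. The ∆ArAceA libraries of M433DRAFT_25825 were at 2.24, 2.78 and 1.82 FPKM without copper and 6.51, 4.49 and 7.17 with it, and their means differed 2.66-fold. M433DRAFT_4393, M433DRAFT_9714 and M433DRAFT_130178 were the 3 members not called with copper in ∆ArAceA.

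Over the members, the 3 libraries of ∆ArAceA with copper also differed slightly from each other. Replicate 3 lay above its group mean in 31 of the 41 genes, with a median deviation of 0.06 on the log2(FPKM + 1) scale, and replicate 2 in 13, with a median deviation of -0.04. Over all tested genes the median deviations of these libraries were 0.02 and -0.02. Both were small beside the responses.

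The nearest genes on either side of 4 of the limits are given here, and no member came near the limit of 1000 FPKM. M433DRAFT_153609, with a response of 1.001 in ∆ArAceA (2.59 to 6.18 FPKM), was just inside, and M433DRAFT_446306, at 9.85 to 20.7 FPKM and a response of 0.9998, just outside. By the response in WT, M433DRAFT_152183 at 0.49 (33.8 to 47.9 FPKM) was the last kept and M433DRAFT_46718 at 0.51 (23.6 to 34.1 FPKM) the first left aside. By the level in ∆ArAceA without copper, M433DRAFT_143510 at -0.92 was kept, and M433DRAFT_3181 at -1.003 was not, although it went from 22.7 to 49.8 FPKM with copper in ∆ArAceA and from 46.4 to 40.6 FPKM in WT. By the highest mean, M433DRAFT_159674 at 5.49 FPKM was kept and M433DRAFT_429038 at 4.83 FPKM was not.

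Membership was sensitive to single libraries. Leaving out each of the 12 libraries in turn and choosing again gave 38 to 44 genes, and 18 of the 41 were chosen in all 12 of these settings while 23 were lost in at least 1. Some of the strongest responders in ∆ArAceA were among the 23. M433DRAFT_156164 was lost without WT with copper replicate 1 or replicate 2, and M433DRAFT_153701 without WT replicate 1 or replicate 3. A pseudocount of 0.1 instead of 1 also gave 41 genes, of which 32 were shared.

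Choosing the genes from 2 of the 3 replicate numbers and reading the third gave values that this choice of genes had not used. It left 1 library per group and so no test. The limits themselves were set with earlier results of these data known, so the libraries left out were not wholly new to the rule. Without the libraries numbered 1 the rule chose 47 genes, and in the libraries left out their copper response in ∆ArAceA had a median of 1.204, was above 0 in 46 and was at least 1 in 30. Without those numbered 2 it chose 43 genes, with a median of 1.04 in the libraries left out, above 0 in all 43 and at least 1 in 24. Without those numbered 3 it chose 38 genes, with a median of 1.16, above 0 in all 38 and at least 1 in 25. Over all genes within the limits on level, the response in the same libraries had medians of -0.03, -0.04 and -0.0065, and it was at least 1 in 2.01%, 1.95% and 2.16% of genes.

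The limit on the WT response held less well in libraries left out. There the chosen genes had median WT responses of 0.36, 0.13 and 0.16, and the response was below 0.5 in 31 of 47, 37 of 43 and 30 of 38 genes. Over all genes within the limits on level it was below 0.5 in 93.9%, 94.6% and 95.3%. The response in ∆ArAceA exceeded that in WT in 44 of 47, 42 of 43 and 37 of 38 of the chosen genes, beside 46.8%, 52.1% and 47.8% of all genes within those limits.

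**Figure D5:**
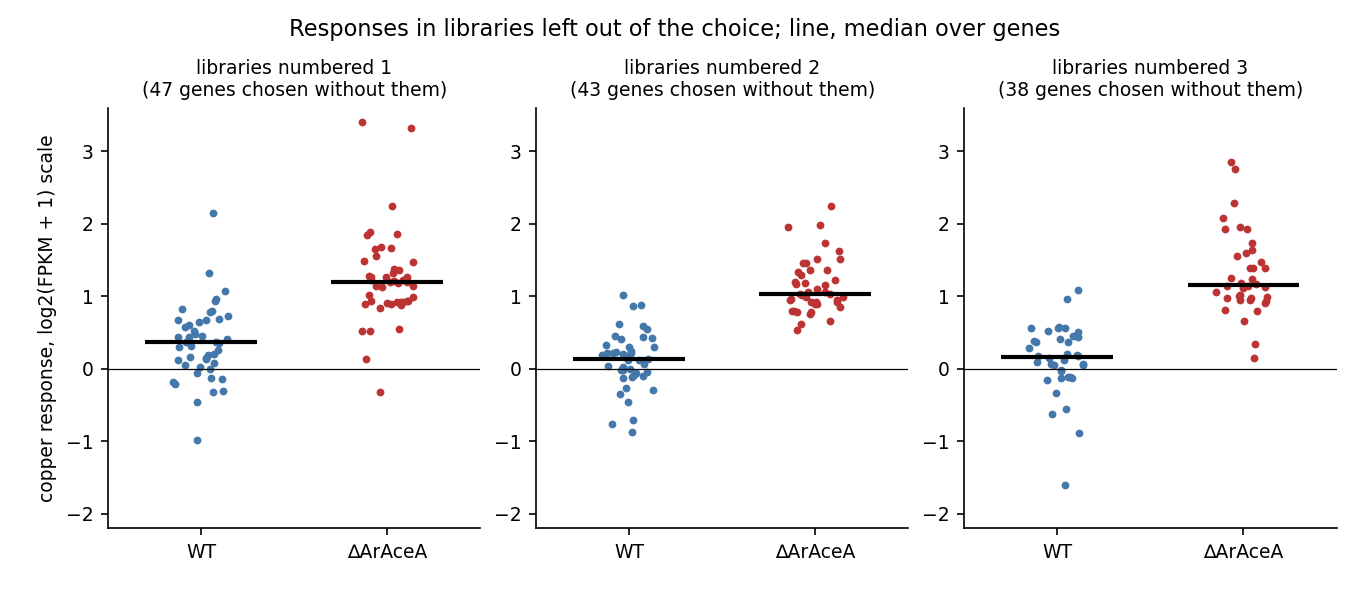
Copper response in WT (blue) and ∆ArAceA (red), as differences of log2(FPKM + 1) between single libraries, for genes chosen without the libraries shown; each point is a gene and each black line the median over genes. The medians are 1.204, 1.04 and 1.16 in ∆ArAceA and 0.36, 0.13 and 0.16 in WT for the libraries numbered 1, 2 and 3.

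The 86 genes left aside for their response in WT form the nearest set to compare with, and the rule separates the sets by construction, so no test is given. Their median level was 6.25 FPKM in WT and 15.1 with copper, and 7.47 FPKM in ∆ArAceA and 35.8 with copper. Their median copper response in ∆ArAceA was 1.62, against 1.16 in the 41 genes, and reached 4.99, against 2.72. The sets overlapped, and 6 of the 41 genes lay above the median of the 86.

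The authors' deposited table gave log2 ratios and Q values for the same group comparisons. By the authors' deposited table, 38 of the 41 genes had a Q under 0.05 and a higher level with copper in ∆ArAceA, against 24.3% of all listed genes. For copper in WT the authors' deposited table listed 9 members higher, against 6.16%, and 1 lower (M433DRAFT_4393), against 5.46%. For ∆ArAceA with copper against WT with copper it listed 35 members higher in the authors' deposited table, against 15.6%. Without copper the authors' deposited table had 7 members higher in ∆ArAceA, against 23.9%, and 14 lower, against 24.1%. These ratios rest on the same libraries and contrasts as the rule, and nothing is read from the counts.

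For a few members the ratio in the authors' deposited table was far from the change of log2(mean FPKM + 1). Over 7298 tested genes of at least 5 FPKM in the highest group, the ratio for copper in ∆ArAceA in the authors' deposited table minus the change of log2(mean FPKM + 1) had a median of 0.04. It was below -0.3 in 41 of these genes, or 0.562%, and in 4 of the 41 members, or 9.76%. The 4 members were M433DRAFT_4393, M433DRAFT_130178, M433DRAFT_3240 and M433DRAFT_154705, the last named after its values were seen. M433DRAFT_154705 had FPKM values of 10.0, 10.5 and 10.8 in WT and 9.95, 10.4 and 10.5 in copper-treated WT, and of 15.3, 16.6 and 17.6 in ∆ArAceA and 34.5, 34.03 and 34.9 in copper-treated ∆ArAceA. The replicates were tight, with ∆ArAceA with copper 2.09-fold above ∆ArAceA and 3.35-fold above WT with copper. The authors' deposited table gave this gene log2 ratios of 0.45 and 0.36 for those comparisons, where the FPKM changed by 1.02 and 1.65. For M433DRAFT_3240 the authors' deposited table gave 0.62 for copper in ∆ArAceA, where the FPKM changed by 1.01. The gap was above 0.3 in 6 members, or 14.6%, and in 63 of the 7298 genes, or 0.863%. These 6 had means of 0 to 2.51 FPKM in ∆ArAceA without copper, where the added 1 compresses the change. The shares therefore do not compare genes of like level. The widest gap was in M433DRAFT_156164, with a ratio of 5.38 in the authors' deposited table and a change of 2.72 on the log2(mean FPKM + 1) scale. The reason for these gaps was not tested.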

How the data were processed

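Transcript levels were measured by RNA sequencing of total RNA from mycelium, in 12 libraries of 4 groups named by the sample titles. The authors deposited FPKM values per gene and library, already scaled by transcript length and library size per the file headers, and the 12 single-library files equalled the series table. The authors' deposited table also holds log2 ratios and Q-values for comparisons of groups. The tools HISAT2 (version 2.1.0), RSEM (version 1.2.8) and DESeq2 are named per the submitters' processing notes. Their roles, the build and the gene models are not given in the sources used here. Every column of library values belonged to a sample of the series.

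Since the values were FPKM, counts were not tested. With limma 3.58.1 in R 4.3.3 (mean-variance trend, robust moderation), 1 model of the 4 groups was fitted to log2(FPKM + 1) for the 8741 genes that reached 1 FPKM in 3 or more libraries, with Benjamini-Hochberg adjustment over them and a threshold of 0.05. The procedure was tested on simulated data. The members, lists and limits were chosen with earlier results of these data known. No single-gene p-value is given because the rule used every contrast.

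Named members were the 10 with the largest response in ∆ArAceA, the 5 most abundant, the 3 lowest in WT response, the 3 highest and 3 lowest in the genotype difference without copper, the 3 most variable, and the genes next to each limit, 24 members and 4 others in all. No list of gene functions could be used without gene names. Alternatives were other pseudocounts, filters, scalings and limits, the replicate number as a block, fits on the compared groups alone, and leaving out each library. The alternatives for ∆ArAceA against WT without copper were added after seeing the data.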

Additional observations from a re-analysis of the deposited data

Results flagged for a closer look

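Within the 41 genes, the copper response was called more positive in ∆ArAceA than in WT in 38 by the limma test of the difference between genotypes (adjusted p under 0.05), against 20.2% of the genes tested, which brings them here as a difference between groups under the same contrast. The rule asked for a gap between these responses, so the count is not independent of the choice. The other 3 were M433DRAFT_4393, M433DRAFT_9714 and M433DRAFT_130178, which also had the widest replicates or a library near 0.

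In M433DRAFT_6113 and M433DRAFT_159674 every copper library of WT was below every WT library without copper, while every copper library of ∆ArAceA was above those without. The difference of the responses was 1.54 on the log2(mean FPKM + 1) scale for M433DRAFT_6113 and 1.22 for M433DRAFT_159674. In both the fall in WT was not called by limma.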

How the results depend on the processing

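Stricter limits left 20 genes at a WT response below 0.25, 9 at one below 0 and 9 at a response of at least 1.5 in ∆ArAceA, all among the 41. Other forms of the rule gave 29 genes (at least 10 FPKM), 57 (no level limit), 41 (pseudocount 0.1), 44 and 42 (median-of-ratios and upper-quartile scaling) and 42 (means of log2 values). The median response in ∆ArAceA was 1.16 in the 41 genes. In the libraries numbered 2 it was 1.04 over the 43 genes chosen without them, of which 32 were members. With 1 library left out, 38 to 40 of the members were called higher with copper in ∆ArAceA, 37 to 39 by the difference of responses, 36 to 39 higher between the copper groups and 11 to 13 in either direction with copper in WT. The replicate block gave 40, 39, 38 and 11 in place of 38, 38, 38 and 12. Deviations of same-numbered libraries correlated at -0.17 to 0.07 and above 0.1 in 0 of 18 pairs. Differently numbered pairs were not set beside them, so whether the numbers pair the libraries stays unknown. Under both scalings 36 members were called between the copper groups and 14 in either direction with copper in WT. The shares of all tested genes called under these settings are not given here. The rule used the means behind each of these comparisons, so nothing is read from how steady the counts were. For the 24 named members, 11 recomputed responses moved by more than the replicate spread, all to larger values, and 205 did not, counting only settings that could change a response in ∆ArAceA. A pseudocount of 0.1 gave 10 of the 11. Without read counts, the precision of members below 10 FPKM cannot be stated from depth.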
